A study of Mus musculus with 22 samples.

Results

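Genes of the cell cycle and of DNA replication were followed in mouse liver with and without glucagon. The set holds 34 genes, taken by symbol from the table of 24475 genes, and all 34 were found: 8 cyclins and cyclin-dependent kinases, the kinase inhibitor Cdkn1a, the transcription factors E2f1 and Foxm1, 9 genes of origin licensing and the replicative helicase, 5 of DNA synthesis, and 9 of chromosome structure and mitosis. PolyA RNA of the liver came from wild-type (WT) mice and from mice without Gcg (Gcg-/-), the gene for glucagon, the pancreatic hormone that raises glucose output by the liver. The series concerns glucagon and liver zonation. Its 22 libraries fall into 6 groups, since for either genotype 3 were made from uninfused mice, 4 from mice infused with glucagon at 30 µg/d and 4 from mice infused at 150 µg/d. The sources used here do not give the age or sex of the mice or the way the Gcg allele was made, nor that each library came from its own mouse, so p-values measure only the spread between these libraries. Libraries are named by their running number: 1 to 3 are WT and 4 to 6 Gcg-/- without infusion, 7 to 10 WT and 11 to 14 Gcg-/- at 30 µg/d, and 15 to 18 WT and 19 to 22 Gcg-/- at 150 µg/d.

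Adult hepatocytes are mostly quiescent and enter the cell cycle after partial hepatectomy or injury. D-type cyclins with their kinases inactivate the retinoblastoma proteins and so release E2F factors, which drive genes of replication; Cdc6 and Cdt1 then load the helicase made of Mcm2 to Mcm7 onto origins, and nucleotide enzymes supply the precursors. Cyclin A and B kinases, Foxm1 and the mitotic kinases act later, and many of their genes are held silent in resting cells through short promoter elements.

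The promoters of 27 of the 34 genes are in the RefSeq table for GRCm38.p6, as windows from 250 bases before to 50 after a transcription start (29 windows). They were searched on both strands for E2F motifs (TTTCCCGC, TTTGGCGC or TTTCGCGC), for the cell cycle homology region CHR (TTTGAA or TTCGAA) and for the CCAAT box (CCAAT), of which no kind contains another by its letters; E2F matches on opposite strands overlap each other in Mcm6 and Mcm5. An E2F motif was in 27.6% of the members' windows and in 1.84% of the 32851 windows of the table, a CHR in 37.9% and 19.2%, and a CCAAT box in 69.0% and 37.4%. By role, an E2F motif was found for 6 of 7 licensing genes, 2 of 5 cyclins and kinases, 0 of 5 DNA synthesis genes and 0 of 8 mitotic genes, and a CHR for 7 of 8 mitotic and 2 of 7 licensing genes. Such matches are letters in a window and no measure of binding. Shown are Mcm6 (chr1:128359656-128359955, minus strand) and Mcm5 (chr8:75109259-75109558, plus strand), 2 helicase genes with E2F motifs, Cdk1 (chr10:69352863-69353162, minus strand), which has all 3 kinds, Cdc20 (chr4:118437294-118437593, minus strand) with CHR and CCAAT, and Tk1 (chr11:117825965-117826264, minus strand) with none, as examples of the combinations found. Each is printed 5′ to 3′ along its gene, with the motifs in capitals.
Mcm6: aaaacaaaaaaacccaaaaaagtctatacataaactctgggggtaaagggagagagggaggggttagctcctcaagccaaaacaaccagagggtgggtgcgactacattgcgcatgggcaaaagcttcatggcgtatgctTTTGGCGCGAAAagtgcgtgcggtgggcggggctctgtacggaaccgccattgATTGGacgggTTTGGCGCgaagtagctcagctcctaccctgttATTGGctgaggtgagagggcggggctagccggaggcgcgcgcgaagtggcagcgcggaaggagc
Mcm5: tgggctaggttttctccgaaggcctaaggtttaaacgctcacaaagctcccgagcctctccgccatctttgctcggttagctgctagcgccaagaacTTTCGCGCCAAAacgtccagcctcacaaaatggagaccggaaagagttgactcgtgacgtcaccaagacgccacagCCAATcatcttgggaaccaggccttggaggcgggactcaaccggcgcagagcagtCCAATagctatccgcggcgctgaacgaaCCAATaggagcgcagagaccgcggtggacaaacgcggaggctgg
Cdk1: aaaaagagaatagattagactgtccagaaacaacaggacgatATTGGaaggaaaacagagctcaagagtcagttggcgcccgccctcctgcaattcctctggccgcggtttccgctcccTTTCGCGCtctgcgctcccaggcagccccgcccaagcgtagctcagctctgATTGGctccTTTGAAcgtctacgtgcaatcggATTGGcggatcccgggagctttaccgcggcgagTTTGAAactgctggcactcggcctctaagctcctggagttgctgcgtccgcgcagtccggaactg
Cdc20: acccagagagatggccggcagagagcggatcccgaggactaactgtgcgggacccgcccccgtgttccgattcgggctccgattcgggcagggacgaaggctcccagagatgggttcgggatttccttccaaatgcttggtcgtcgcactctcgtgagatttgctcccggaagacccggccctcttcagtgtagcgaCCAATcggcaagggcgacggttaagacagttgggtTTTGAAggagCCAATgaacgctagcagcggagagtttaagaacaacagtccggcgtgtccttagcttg
Tk1: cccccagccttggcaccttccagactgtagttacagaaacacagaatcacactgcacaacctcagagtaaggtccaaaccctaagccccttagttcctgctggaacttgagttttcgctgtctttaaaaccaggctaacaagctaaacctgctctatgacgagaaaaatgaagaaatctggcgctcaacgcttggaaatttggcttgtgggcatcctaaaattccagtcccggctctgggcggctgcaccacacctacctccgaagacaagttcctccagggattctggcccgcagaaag

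Levels are the deposited RPKM, a read density corrected for transcript length (in kilobases) and library depth. Depth was estimated from the steps between low values at 11.1 to 17.7 M reads, at which 1 read on a transcript of 1 kb is worth 0.0564 to 0.0899 RPKM. Genes of the set well below 1 RPKM therefore rest on few reads. Every library, WT or Gcg-/-, lists Gcg at 0, so this gene does not check the genotype labels in liver.

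Libraries 4 and 13 stood apart from the other 20 before any comparison of groups. Both are Gcg-/-, the former without infusion and the latter at 30 µg/d. Of 10 genes known to be higher in male mouse liver, 7 were lower in both than in any other library (Mup20, Mup3, Cyp2d9, Cyp7b1, Elovl3, C6 and Cyp4a12a). The share of all genes lower in both was not counted. Of 9 known to be higher in female liver, 6 were higher in both than in any other (Cyp2b9, Cyp2b13, Cyp2a4, Sult3a1, A1bg and Hao2), against 3.28% of the 18876 genes above 0 in some library. Both lists were chosen with earlier results of these data known. The mean log2(RPKM + 1) of the male-biased list was 5.44 in library 4 and 6.7 in library 13, against 7.67 to 9.45 in the other 20, and that of the female-biased list was 3.39 and 1.95, against 0.290 to 1.09. Summed over the male-biased list, the groups ranged from 14450 to 21700 RPKM in uninfused WT, 2222 to 29040 in uninfused Gcg-/-, 12910 to 21960 in WT and 6565 to 30720 in Gcg-/- at 30 µg/d, and 8499 to 16640 in WT and 11880 to 19680 in Gcg-/- at 150 µg/d. The female-biased sums ranged, in the same order, from 6.23 to 8.63, 2.52 to 234, 4.96 to 8.896, 2.54 to 68.6, 21.5 to 46.6 and 4.07 to 32.5 RPKM. In the other 20 libraries, Cyp17a1 of this list reached 44.7 RPKM and the next highest gene, Cyp2a4, 9.72. The largest sum among those 20, 46.6 RPKM in library 18, therefore rests mainly on Cyp17a1. The Y-linked genes Ddx3y (8.04 to 16.3 RPKM), Kdm5d (2.55 to 4.08), Eif2s3y (13.1 to 30) and Uty (2.27 to 3.93) were present in every library, and Xist was at most 0.0301 RPKM. Among 48 markers of 8 liver and blood cell types, the hepatocyte gene Alb, the endothelial gene Lyve1 and the fibroblast gene Col3a1 were above all others in both libraries and the erythroid gene Alas2 was below; no macrophage, cholangiocyte, lymphocyte or neutrophil marker was above. The part of these features in the results on cell cycle genes was not tested, and the medians of the set and the calls that involve either library are given with and without the pair.

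The cell cycle genes were high in the same pair of libraries. Of the 34 genes, 25 were higher in both library 4 and library 13 than in any of the other 20, which held for 3.28% of the 18876 genes above 0 in some library. Library 4 had the highest value of 27 genes and library 13 of 5, and the remaining highest values were of Cdk2 in library 18 and of Tk1 in library 12. Against the median of the other 20 libraries, the median gene of the set stood 4.15-fold higher in library 4 and 2.93-fold higher in library 13, where the 11590 tested genes had a median ratio of 1.03 and 0.993. The 9 genes without this pattern were Ccnb2, Ccne1, Cdk2, Cdkn1a, Foxm1, Tyms, Tk1, Aurka and Bub1b. The pattern held for 17 of the 21 genes with any of the motifs in their windows (not for Aurka, Bub1b, Ccnb2 and Cdk2) and for 2 of the 6 with none (Birc5 and E2f1). The window of E2f1 (chr2:154569377-154569676, minus strand) lies wholly inside the gene (chr2:154559400-154569892), as do those of Aurka and Cdc6. These windows miss the sequence before the gene's outermost start, so a motif there would not have been seen. After libraries 4 and 13, library 18 (WT, 150 µg/d) came next: it was the highest of the other 20 for 23 of the 34 genes, against 6.43% of all genes above 0, and the set's median ratio in it was 2.01. Its male-biased mean was 9.11 and its female-biased mean 0.818, both inside the range of the other libraries.

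**Figure D1:**
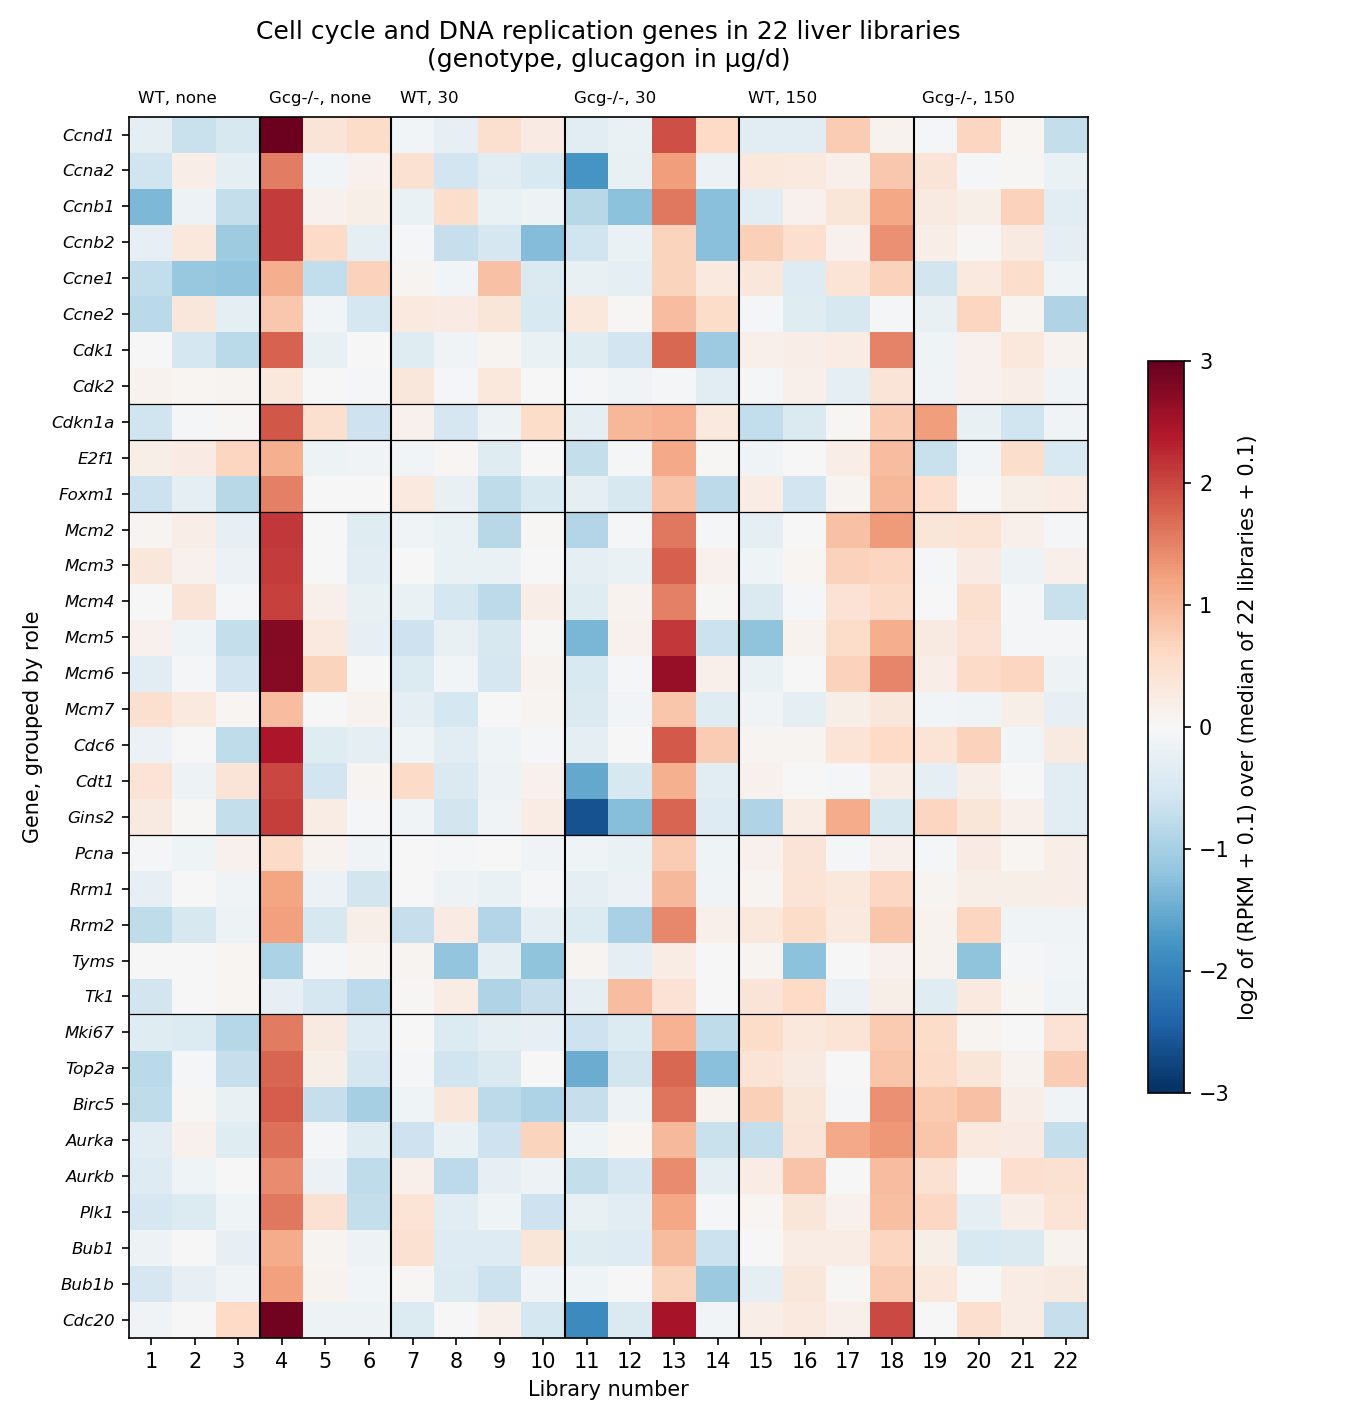
Level of each of the 34 genes (rows, grouped by role) in each of the 22 libraries (columns, grouped by genotype and glucagon dose), as log2 of RPKM + 0.1 over the gene's median across libraries, red above and blue below. The columns of libraries 4 and 13 are red for nearly all genes and that of library 18 for most, while Tyms, Tk1 and Cdk2 do not follow.

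**Figure D2:**
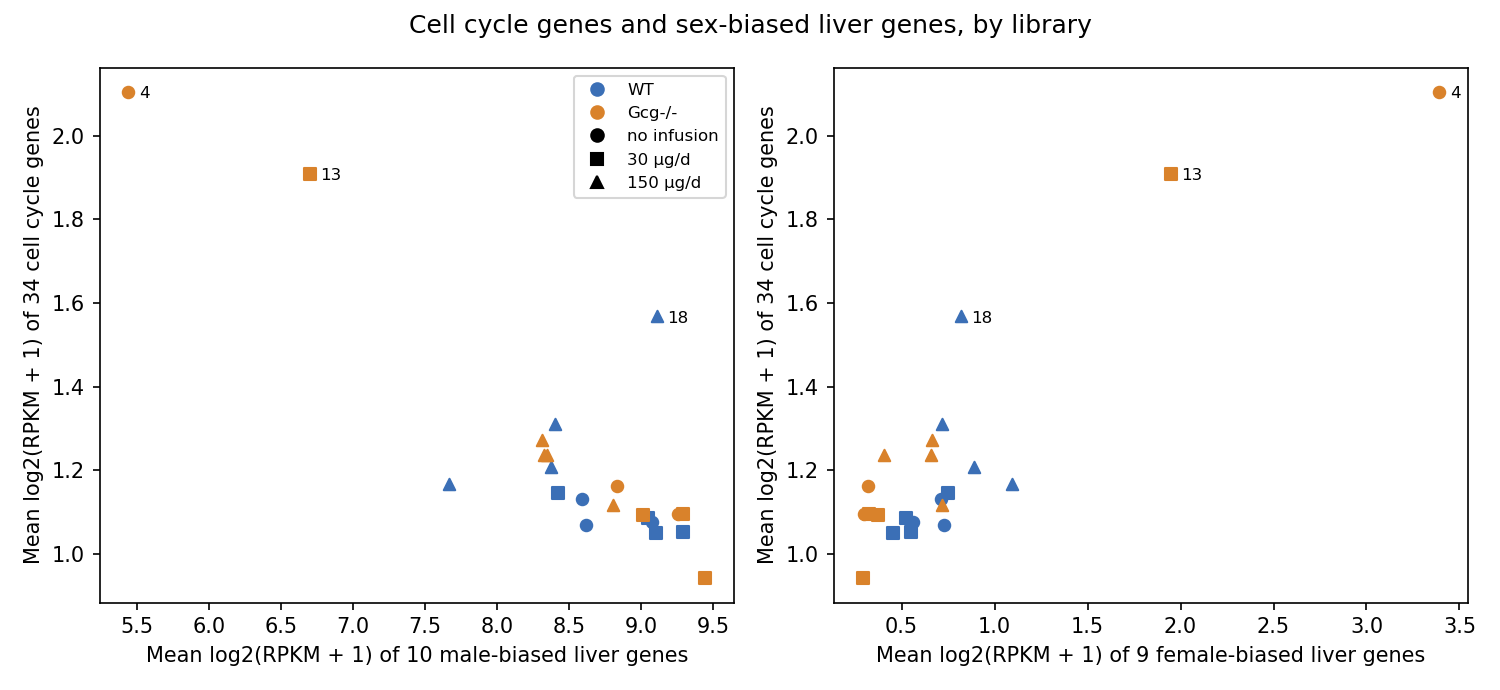
Mean log2(RPKM + 1) of the 34 genes in each library against that of 10 male-biased (left) and 9 female-biased (right) liver genes, with genotype by colour and dose by shape. Libraries 4 and 13 lie at the highest cell cycle means, 2.1 and 1.91, with low male-biased and high female-biased means, while library 18, at 1.57, lies among the others on both horizontal axes.

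Among the cyclins and kinases, Ccnd1 and Cdk2 were the most abundant per kilobase. Ccnd1 encodes cyclin D1, which couples mitogen signals to G1 (Entrez 12443, chr7:144929931-144939831; all gene positions are RefSeq on GRCm38.p6). Its levels were 5.84, 4.45 and 5.11 RPKM in WT and 55.9, 9.47 and 10.6 in Gcg-/- libraries without infusion. Under infusion the levels were 6.72, 6.03, 10.049 and 8.57 in WT and 5.68, 6.24, 27.6 and 10.991 in Gcg-/- liver at 30 µg/d, and 5.79, 5.71, 12.2 and 7.702 in WT and 6.84, 11.2, 7.51 and 4.36 in Gcg-/- liver at 150 µg/d. Library 4 lay far above its group, library 13 was next, and all 3 uninfused Gcg-/- libraries lay above all 3 uninfused WT libraries. Ccne1, the cyclin E that activates Cdk2 at entry into S phase (Entrez 12447, chr7:38097984-38107490), stood at 0.570, 0.408 and 0.395 RPKM in WT and 2.31, 0.580 and 1.71 in Gcg-/- libraries without infusion. The infused libraries held 1.08, 0.969, 1.95 and 0.732 in WT and 0.862, 0.816, 1.696 and 1.29 in Gcg-/- liver at 30 µg/d, and 1.32, 0.763, 1.4 and 1.71 in WT and 0.668, 1.29, 1.52 and 0.930 in Gcg-/- liver at 150 µg/d. The uninfused WT libraries were the lowest 3, just under library 5, and libraries 4 and 9 were highest. Cdk2 itself (Entrez 12566, chr10:128697938-128705051) varied little, with 4.36, 4.27 and 4.301 RPKM in WT and 5.11, 4.09 and 3.89 in Gcg-/- libraries without infusion. With glucagon the readings were 5.13, 3.88, 5.13 and 4.04 in WT and 3.97, 3.801, 3.88 and 3.199 in Gcg-/- liver at 30 µg/d, and 3.95, 4.505, 3.38 and 5.33 in WT and 3.75, 4.48, 4.69 and 3.79 in Gcg-/- liver at 150 µg/d. Neither library 4 nor library 13 was above the others for this kinase, and library 14 was lowest.

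The B-type cyclins, partners of Cdk1 in mitosis, were far lower. For Ccnb1 (Entrez 268697, chr13:100778739-100786486) the values were 0.024, 0.186 and 0.091 RPKM in WT and 1.25, 0.245 and 0.258 in Gcg-/- libraries without infusion. Glucagon-infused liver gave 0.176, 0.356, 0.176 and 0.186 in WT and 0.077, 0.034, 0.840 and 0.033 in Gcg-/- liver at 30 µg/d, and 0.152, 0.246, 0.303 and 0.607 in WT and 0.282, 0.259, 0.409 and 0.152 in Gcg-/- liver at 150 µg/d. Libraries 4 and 13 were highest, followed by library 18. Ccnb2 (Entrez 12442, chr9:70407689-70421554) was measured at 0.398, 0.637 and 0.182 RPKM in WT and 2.44, 0.782 and 0.388 in Gcg-/- libraries without infusion. Libraries from infused mice had 0.476, 0.267, 0.317 and 0.140 in WT and 0.288, 0.414, 0.842 and 0.148 in Gcg-/- liver at 30 µg/d, and 0.877, 0.738, 0.547 and 1.42 in WT and 0.583, 0.506, 0.614 and 0.381 in Gcg-/- liver at 150 µg/d. Library 4 was again highest, but here libraries 18 and 15 exceeded library 13. The other members of this role that the naming rule leaves to a summary are Ccna2, the cyclin of S phase and G2 (0.032 to 1.21 RPKM), Ccne2 (0.132 to 0.715) and Cdk1, the mitotic kinase (0.187 to 1.97), and in each of them libraries 4 and 13 were the top pair.

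Cdkn1a encodes p21, the inhibitor of cyclin-dependent kinases induced by p53 (Entrez 12575, chr17:29090979-29100722). It was at 0.321, 0.514 and 0.551 RPKM in WT and 2.19, 0.780 and 0.313 in Gcg-/- libraries without infusion. Under infusion the levels were 0.597, 0.345, 0.468 and 0.825 in WT and 0.418, 1.17, 1.21 and 0.679 in Gcg-/- liver at 30 µg/d, and 0.277, 0.372, 0.551 and 0.965 in WT and 1.41, 0.440, 0.318 and 0.492 in Gcg-/- liver at 150 µg/d. Library 4 was highest, but library 19 exceeded library 13, and library 12 nearly equalled it. E2f1, one of the activating E2F factors (Entrez 13555, chr2:154559400-154569892), gave 1.24, 1.29 and 1.73 RPKM in WT and 2.37, 0.953 and 0.994 in Gcg-/- libraries without infusion. The infused libraries held 1.004, 1.104, 0.809 and 1.07 in WT and 0.612, 1.04, 2.48 and 1.11 in Gcg-/- liver at 30 µg/d, and 0.997, 1.08, 1.25 and 2.13 in WT and 0.645, 1.004, 1.605 and 0.751 in Gcg-/- liver at 150 µg/d. Its highest values were in libraries 13, 4 and 18, and the uninfused WT libraries lay above libraries 5 and 6. Foxm1, a factor for mitotic genes, ranged from 0.064 to 0.742 RPKM, with libraries 4, 18 and 13 on top.

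All 9 licensing and helicase genes were higher in libraries 4 and 13 than in the other 20, by 1.98- to 12.4-fold in library 4 and 1.85- to 7.78-fold in library 13 against the median of those 20. Mcm2 to Mcm7 are the subunits of the hexameric helicase. Mcm2 (Entrez 17216, chr6:88883474-88898780) had 1.17, 1.27 and 0.916 RPKM in WT and 5.13, 1.11 and 0.837 in Gcg-/- libraries without infusion. With glucagon the readings were 1.01, 0.953, 0.579 and 1.13 in WT and 0.553, 1.06, 3.51 and 1.06 in Gcg-/- liver at 30 µg/d, and 0.906, 1.096, 2.103 and 2.81 in WT and 1.45, 1.495, 1.24 and 1.08 in Gcg-/- liver at 150 µg/d. Libraries 4 and 13 were separated from all others, and libraries 18 and 17 led the rest. Mcm3 (Entrez 17215, chr1:20802966-20820312) showed 1.97, 1.68 and 1.34 RPKM in WT and 6.91, 1.52 and 1.22 in Gcg-/- libraries without infusion. Glucagon-infused liver gave 1.52, 1.31, 1.32 and 1.54 in WT and 1.26, 1.33, 5.596 and 1.69 in Gcg-/- liver at 30 µg/d, and 1.38, 1.601, 2.53 and 2.46 in WT and 1.499, 1.85, 1.36 and 1.73 in Gcg-/- liver at 150 µg/d. The same pair was on top, with libraries 17 and 18 again next. Mcm4 (Entrez 17217, chr16:15623897-15637400) lay at 1.27, 1.71 and 1.21 RPKM in WT and 5.61, 1.42 and 1.07 in Gcg-/- libraries without infusion. Libraries from infused mice had 1.09, 0.849, 0.702 and 1.48 in WT and 0.965, 1.38, 3.84 and 1.32 in Gcg-/- liver at 30 µg/d, and 0.917, 1.25, 1.76 and 1.93 in WT and 1.27, 1.805, 1.22 and 0.768 in Gcg-/- liver at 150 µg/d. The order of the top 3 was libraries 4, 13 and 18.

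Mcm5 (Entrez 17218, chr8:75109468-75128439) reached 1.08, 0.880 and 0.555 RPKM in WT and 7.06, 1.203 and 0.801 in Gcg-/- libraries without infusion. Under infusion the levels were 0.596, 0.820, 0.666 and 0.985 in WT and 0.312, 1.07, 4.56 and 0.580 in Gcg-/- liver at 30 µg/d, and 0.361, 1.04, 1.46 and 2.18 in WT and 1.19, 1.33, 0.950 and 0.927 in Gcg-/- liver at 150 µg/d. Library 15 was low among the WT libraries at 150 µg/d and library 11 was lowest of all. Mcm6 (Entrez 17219, chr1:128331575-128359705) came to 1.498, 1.86 and 1.26 RPKM in WT and 13.2, 3.104 and 1.92 in Gcg-/- libraries without infusion. The infused libraries held 1.41, 1.79, 1.32 and 2.07 in WT and 1.38, 1.84, 12.2 and 2.16 in Gcg-/- liver at 30 µg/d, and 1.66, 1.91, 3.17 and 5.42 in WT and 2.22, 2.92, 3.03 and 1.72 in Gcg-/- liver at 150 µg/d. These 2 genes had the largest ratios among the helicase subunits in library 4 (7.53 and 6.98) and in library 13 (4.86 and 6.44), with library 18 next in both and library 5 above library 6. Mcm7 (Entrez 17220, chr5:138164583-138172111) differed least, with 5.86, 5.17 and 4.37 RPKM in WT and 8.08, 4.23 and 4.496 in Gcg-/- libraries without infusion. With glucagon the readings were 3.47, 2.89, 4.17 and 4.42 in WT and 3.08, 3.96, 7.55 and 3.25 in Gcg-/- liver at 30 µg/d, and 3.898, 3.44, 4.75 and 5.31 in WT and 3.98, 3.91, 4.74 and 3.55 in Gcg-/- liver at 150 µg/d. Among the other 20, libraries 1, 18 and 2 were highest, and the ratios in libraries 4 and 13 were the smallest of the 6 subunits.

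Cdt1, which loads the helicase with Cdc6 (Entrez 67177, chr8:122568015-122573130), was found at 1.704, 1.12 and 1.67 RPKM in WT and 5.29, 0.809 and 1.33 in Gcg-/- libraries without infusion. Glucagon-infused liver gave 1.897, 0.902, 1.11 and 1.37 in WT and 0.365, 0.874, 2.73 and 0.975 in Gcg-/- liver at 30 µg/d, and 1.37, 1.26, 1.22 and 1.48 in WT and 1.01, 1.45, 1.23 and 0.991 in Gcg-/- liver at 150 µg/d. Library 4 was highest, followed by libraries 13 and 7. Gins2, a subunit of the GINS complex that completes the active helicase (Entrez 272551, chr8:120581266-120589075), was found at 0.644, 0.532 and 0.271 RPKM in WT and 2.46, 0.615 and 0.494 in Gcg-/- libraries without infusion. Libraries from infused mice had 0.471, 0.318, 0.470 and 0.621 in WT and 0, 0.154, 1.95 and 0.367 in Gcg-/- liver at 30 µg/d, and 0.226, 0.616, 1.22 and 0.338 in WT and 0.865, 0.694, 0.586 and 0.396 in Gcg-/- liver at 150 µg/d. It was listed at 0 in library 11, and libraries 4 and 13 were on top. Cdc6 was low in all libraries, from a listed 0 to 0.809 RPKM, and had the largest ratio of the set in library 4, on few reads.

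**Figure D3:**
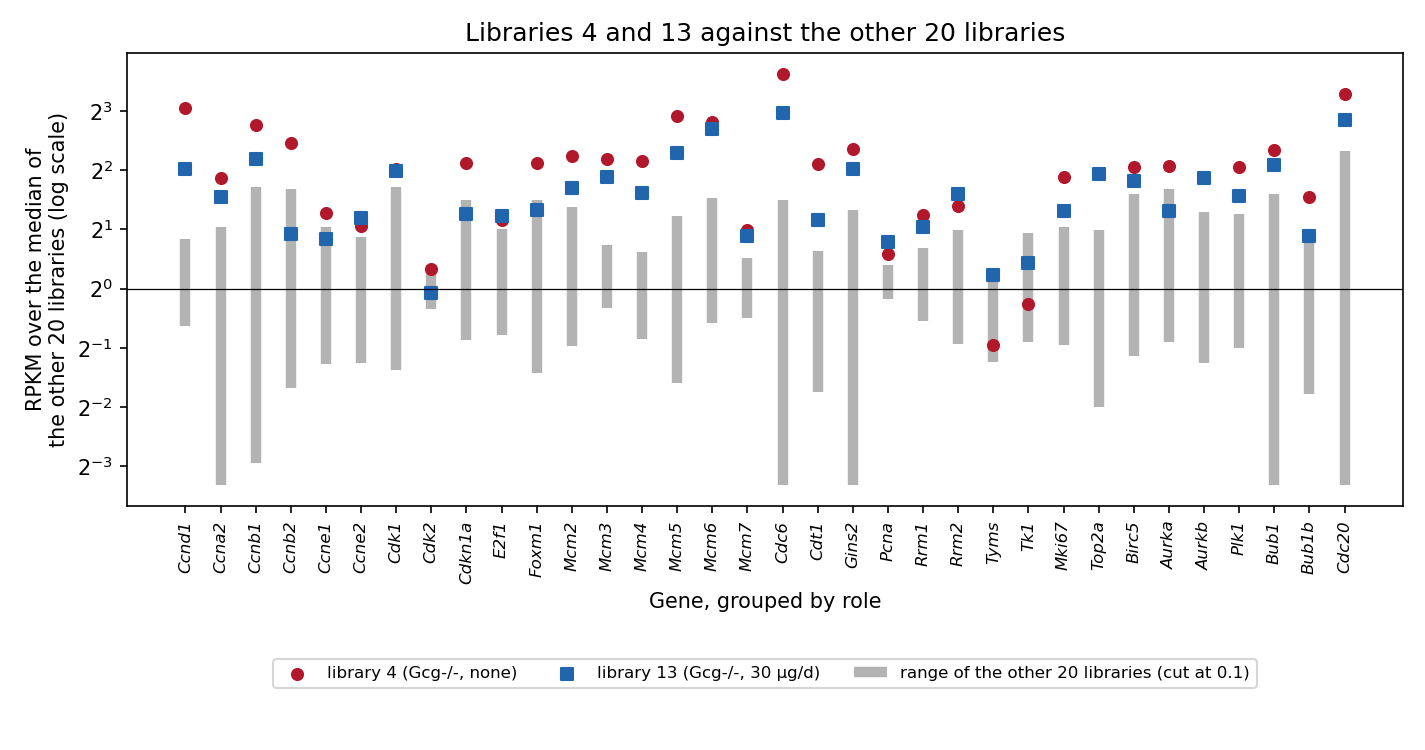
RPKM of library 4 (circles) and library 13 (squares) over the median of the other 20 libraries for each gene, on a log axis, with grey bars for the range of those 20 (cut at 0.1). The circles and squares of all 9 licensing genes lie above their bars, while those of Cdk2, Tyms and Tk1 lie in or near them.

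The 5 DNA synthesis genes had means of 2.06 to 18.2 RPKM, and 3 of them were highest in libraries 4 and 13. Pcna encodes the sliding clamp of the replicative polymerases (Entrez 18538, chr2:132249286-132253180). It amounted to 16.7, 15.6 and 18.5 RPKM in WT and 25.2, 18.1 and 15.9 in Gcg-/- libraries without infusion. Under infusion the levels were 17.1, 16.2, 16.8 and 15.7 in WT and 15.6, 14.8, 28.9 and 15.4 in Gcg-/- liver at 30 µg/d, and 18.6, 22.1, 16.7 and 18.9 in WT and 16.5, 20.2, 17.6 and 19.6 in Gcg-/- liver at 150 µg/d. Libraries 13 and 4 were highest, with ratios of 1.73 and 1.5 to the median of the other 20, and library 16 followed. Rrm1, the large subunit of ribonucleotide reductase (Entrez 20133, chr7:102441695-102469771), amounted to 2.15, 2.52 and 2.37 RPKM in WT and 5.93, 2.25 and 1.71 in Gcg-/- libraries without infusion. The infused libraries held 2.57, 2.29, 2.198 and 2.47 in WT and 2.11, 2.26, 5.12 and 2.35 in Gcg-/- liver at 30 µg/d, and 2.69, 3.397, 3.196 and 3.998 in WT and 2.69, 2.87, 2.89 and 2.94 in Gcg-/- liver at 150 µg/d. Below libraries 4 and 13, the next 8 libraries were the 8 at 150 µg/d of either genotype. Rrm2, its small regulatory subunit (Entrez 20135, chr12:24708254-24714146), had levels of 1.02, 1.27 and 1.61 RPKM in WT and 4.42, 1.27 and 2.08 in Gcg-/- libraries without infusion. With glucagon the readings were 1.08, 2.15, 0.933 and 1.48 in WT and 1.34, 0.878, 5.06 and 2.03 in Gcg-/- liver at 30 µg/d, and 2.26, 2.71, 2.25 and 3.302 in WT and 1.95, 2.89, 1.67 and 1.67 in Gcg-/- liver at 150 µg/d. Library 13 was highest, library 4 came next, and all 4 WT libraries at 150 µg/d lay above all 3 uninfused WT libraries.

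Tk1 is the cytosolic thymidine kinase that salvages thymidine (Entrez 21877, chr11:117815519-117826087). Its expression was 9.44, 13.9 and 14.3 RPKM in WT and 11.6, 9.74 and 7.93 in Gcg-/- libraries without infusion. Glucagon-infused liver gave 14.2, 16.2, 7.37 and 8.53 in WT and 11.4, 26.3, 18.7 and 13.7 in Gcg-/- liver at 30 µg/d, and 18.2, 20.976, 12.3 and 15.5 in WT and 10.8, 16.8, 14.2 and 12.7 in Gcg-/- liver at 150 µg/d. Library 12 was highest, libraries 16 and 13 followed, and library 4 was below the median of the other 20. Tyms, thymidylate synthase (Entrez 22171, chr5:30038546-30073645), was split in 2: its values were 9.87, 9.95 and 10.3 RPKM in WT and 5.11, 9.54 and 10.5 in Gcg-/- libraries without infusion. Libraries from infused mice had 10.4, 4.32, 8.22 and 4.24 in WT and 10.5, 8.11, 11.6 and 9.88 in Gcg-/- liver at 30 µg/d, and 10.4, 4.165, 10 and 10.8 in WT and 10.6, 4.22, 9.71 and 9.4 in Gcg-/- liver at 150 µg/d. Libraries 4, 8, 10, 16 and 20, from 4 of the 6 groups, lay between 4.16 and 5.11 RPKM, and the other 17 between 8.11 and 11.6 RPKM. No other tested gene separated those 5 libraries from the other 17 on the same side. A pseudogene of it, Tyms-ps, was at most 0.177 RPKM in any library. The sources used here do not say how reads common to both copies were counted, and their part in the 2 levels was not tested.

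Genes of chromosome structure and mitosis were all below 3 RPKM. Birc5 encodes survivin, a subunit of the chromosomal passenger complex (Entrez 11799, chr11:117849237-117855743). It had 0.344, 0.678 and 0.546 RPKM in WT and 2.55, 0.365 and 0.280 in Gcg-/- libraries without infusion. Under infusion the levels were 0.587, 0.848, 0.335 and 0.295 in WT and 0.367, 0.574, 2.18 and 0.706 in Gcg-/- liver at 30 µg/d, and 1.15, 0.878, 0.631 and 1.87 in WT and 1.21, 1.29, 0.765 and 0.604 in Gcg-/- liver at 150 µg/d. Libraries 4, 13 and 18 were the top 3, and the lowest value was in library 6. Aurka, the centrosomal Aurora kinase (Entrez 20878, chr2:172356190-172370886), had 0.235, 0.356 and 0.222 RPKM in WT and 1.21, 0.299 and 0.225 in Gcg-/- libraries without infusion. The infused libraries held 0.172, 0.261, 0.172 and 0.566 in WT and 0.281, 0.336, 0.722 and 0.161 in Gcg-/- liver at 30 µg/d, and 0.155, 0.450, 0.814 and 0.926 in WT and 0.645, 0.411, 0.392 and 0.155 in Gcg-/- liver at 150 µg/d. Library 4 was highest, and libraries 18 and 17 exceeded library 13. Cdc20, an activator of the anaphase-promoting complex (Entrez 107995, chr4:118432901-118437343), had 0.250, 0.275 and 0.472 RPKM in WT and 2.68, 0.238 and 0.240 in Gcg-/- libraries without infusion. With glucagon the readings were 0.183, 0.277, 0.319 and 0.161 in WT and 0, 0.179, 1.98 and 0.256 in Gcg-/- liver at 30 µg/d, and 0.329, 0.359, 0.315 and 1.38 in WT and 0.274, 0.437, 0.341 and 0.132 in Gcg-/- liver at 150 µg/d. Libraries 4, 13 and 18 were the only 3 above 1 RPKM, and library 11 was listed at 0. In the other 6 genes of the role, libraries 4 and 13 were the top pair for Mki67 (0.251 to 1.79 RPKM), Top2a (0.136 to 2.09), Aurkb (0.084 to 0.741), Plk1 (0.116 to 0.968) and Bub1 (0 to 0.236), but not for Bub1b (0.083 to 0.837). Library 18 was the highest of the other 20 for all 9 mitotic genes, for 5 of 8 cyclins and kinases and for 4 of 9 licensing genes.

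**Figure D4:**
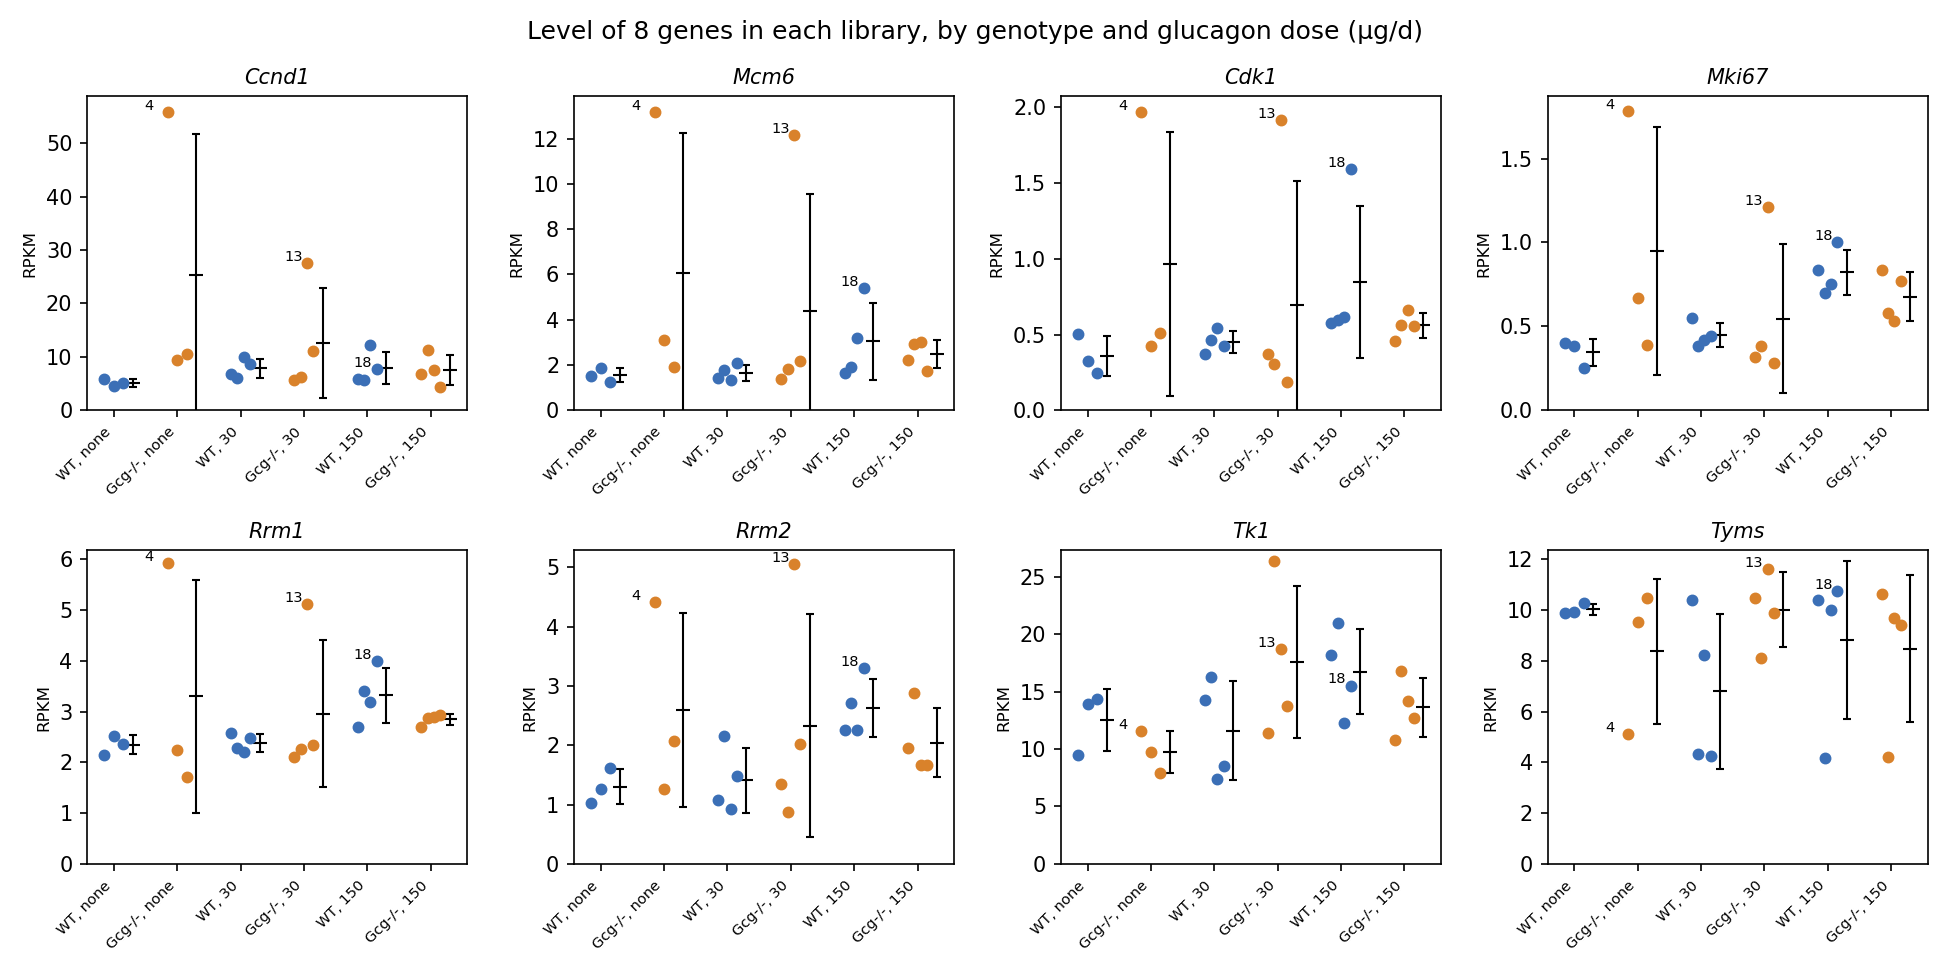
RPKM of 8 genes in each library by group, with WT in blue and Gcg-/- in orange and with the group mean and SD beside the points (SD bars are cut at 0). Libraries 4 and 13 raise the means and widen the SD of their groups in Ccnd1, Mcm6, Cdk1, Mki67, Rrm1 and Rrm2. For Rrm1 and Rrm2 the highest group mean is still that of WT at 150 µg/d (3.32 and 2.63 RPKM). In Tk1 libraries 4 and 13 lie inside the range of the other libraries, and in Tyms 5 points lie near 4 to 5 RPKM.

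Other genes of the same pathways showed this pattern to different degrees. Both libraries were above the other 20 for 18 of 36 further replication genes (median ratio 1.58 in library 4 and 1.37 in library 13) and for 14 of 28 further mitotic genes (3.26 and 2.45). It was so for 3 of 23 G1 regulators (1.24 and 1.12) and for 2 of 17 checkpoint genes and p53 targets (1.33 and 0.995). Over the 18876 genes above 0 in some library, the share above the other 20 in both was 3.28%. Uhrf1, which couples replication to maintenance of DNA methylation, was at 3.44 RPKM in library 4 and 2.61 in library 13, with 0.075 to 0.807 in the other 20. Mcm10, a replication factor, went the other way: libraries 4 and 13 held its lowest values, 6.93 and 9.06 RPKM, against 10.5 to 32.2 in the other 20. Both genes were singled out after their values were seen.

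Uninfused Gcg-/- liver was compared with uninfused WT liver to ask what loss of glucagon does to these genes. Of the 34 genes, 31 had a higher mean on the log2(RPKM + 1) scale in Gcg-/- liver, with a median difference of 0.31 where the median of all 18876 genes was 0.00. None of the 24 genes that passed the filter (a mean of at least 0.5 RPKM) was called by limma. Of these, Cdc20 (mean 0.503 RPKM) and Gins2 (0.650) passed only through libraries 4 and 13, and neither is in the filtered fit without the pair. In this comparison 1.54% of 11590 genes were called at a Benjamini-Hochberg adjusted p under 0.05. At an unadjusted p under 0.05 there were 5 of 24, or 20.8%, against 17.5% of all tested genes. Ccnd1 averaged 25.3 ± 26.5 RPKM in Gcg-/- and 5.13 ± 0.698 in WT (SD, n = 3 each), a log2 difference of 1.64 ± 0.54 (SE; limma, adjusted p = 0.12). Mcm6 averaged 6.06 ± 6.18 and 1.54 ± 0.304 RPKM (1.13 ± 0.53, adjusted p = 0.28), and Mki67, an antigen of cycling cells, 0.948 ± 0.739 and 0.344 ± 0.0812 RPKM (0.47 ± 0.20, adjusted p = 0.226). In each of these the SD of the Gcg-/- group, set by library 4, exceeded its difference from WT. Without libraries 4 and 13 the median difference of the 34 genes was 0.01, and 18 of them were higher. Ccnd1 then stood at 10.03 ± 0.79 RPKM (SD, n = 2) with a difference of 0.85 ± 0.32 (limma, adjusted p = 0.267). The differences of Mcm6 and Mki67 were then 0.45 ± 0.28 and 0.18 ± 0.11 (adjusted p = 0.527 and 0.498), and 0.191% of all genes were called.

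In 6 of the 34 genes all 3 uninfused Gcg-/- libraries lay above all 3 WT libraries and in none did they lie below, where 10.4% of the genes above 0 in some library lay wholly above and 8.23% wholly below. They were Ccnd1, Ccnb1, Ccne1, Mcm6, Bub1b and Foxm1. Leaving out library 4 cannot take a gene off this list, so that the same 6 remained is no further support. The background was then 15.1%, and Cdk2, Cdc20 and E2f1 lay wholly below WT (background 12.9%). Ccne1 averaged 1.53 ± 0.878 RPKM in Gcg-/- and 0.458 ± 0.0974 in WT (log2 difference 0.73 ± 0.24, limma, adjusted p = 0.121). It was the one gene of the set called when a single library was left out: without library 5 the difference was 1.04 with an adjusted p of 0.0449. Of the other pathway genes, 3 were called in this comparison, all higher, where 1.54% of all tested genes were called. They were the stress-induced Gadd45a (log2 difference 1.45, limma, adjusted p = 0.0422) and Gadd45b (2.55, 0.0218), and Wee1, the kinase that holds back Cdk1 (1.25, 0.0349). All 3 uninfused Gcg-/- libraries lay above the WT libraries in each of these genes, with library 4 highest. Without libraries 4 and 13 the differences were 1.09, 1.92 and 0.92, and none was called (limma, adjusted p = 0.183, 0.0889 and 0.173). Endothelial markers moved with this comparison as well, with 4 of 6 called higher (Lyve1, Cdh5, Pecam1 and Stab2, none at 0), against the same 1.54%. The sums of this list were 62.1 to 69.5 RPKM in WT and 88.5 to 91.8 in Gcg-/- liver. Without the pair none of the 4 was called (limma, adjusted p from 0.113 to 0.146). Summed markers of some other cells were also apart, with no single marker of these lists called. For macrophages the sums were 137 to 185 RPKM in WT and 201 to 221.6 in Gcg-/- liver. They were 77.8 to 88.5 and 105.5 to 108.9 for stellate cells and fibroblasts, and 16.4 to 32.8 and 60.3 to 177 for cholangiocytes. The cholangiocyte sums rest mainly on Spp1, at 58.4 of 60.3 RPKM in library 4. No other marker of that list exceeded 1.85 RPKM in any library. Dcn gave 74.9 RPKM of the stellate and fibroblast sum in library 4. The hepatocyte sum was 39720 to 44370 RPKM in WT and 45340 to 72150 in Gcg-/- liver, the highest in library 4, where Alb alone gave 53680. Lymphocyte, neutrophil and erythroid sums overlapped between the groups. The part of all these markers in the cell cycle values was not tested. In bulk RNA more cells of a type cannot be told apart from more RNA per cell.

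Glucagon at 30 µg/d in WT liver left the set near its uninfused level. The median difference from uninfused WT was 0.01 on the log2(RPKM + 1) scale, 19 of 34 genes were higher, and no gene of the set was called by limma, as was no gene at all (0% of 11590). At an unadjusted p under 0.05 there was 1 of 24 genes, or 4.17%, against 5.67% of all tested genes. That gene was Ccne1, at 1.19 ± 0.534 RPKM (SD, n = 4) against 0.458 ± 0.0974 (n = 3), a log2 difference of 0.56 ± 0.23 (SE; limma, adjusted p = 0.837). Ccnd1 and Ccne1 lay above all uninfused WT libraries in all 4 libraries (background 2.65% upwards) and E2f1 below them (3.19% downwards). None of the other pathway genes was called.

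At 150 µg/d in WT liver, the set was higher by a smaller margin than in uninfused Gcg-/- liver, and most so in library 18. The mean log2(RPKM + 1) of the 34 genes was 1.17, 1.21, 1.31 and 1.57 in libraries 15 to 18. In uninfused WT it was 1.07 to 1.13. The median difference from uninfused WT was 0.21 and 28 of 34 genes were higher, where all genes had a median of 0.00. No gene was called by limma with all libraries in the fit (background 0.293% of 11590), and 3 of 24, or 12.5%, had an unadjusted p under 0.05, against 12.1% of all tested genes. A group of 8 genes lay above all 3 uninfused WT libraries in all 4 libraries at 150 µg/d, namely Ccne1, Cdk1, Mki67, Top2a, Rrm1, Rrm2, Plk1 and Cdc6, and none lay below; the background was 4.18% upwards and 6.48% downwards. Mki67 stood at 0.834, 0.698, 0.752 and 1.002 RPKM at 150 µg/d and at 0.398, 0.384 and 0.251 RPKM without infusion, a log2 difference of 0.44 ± 0.19 (SE; limma, adjusted p = 0.353). Rrm1 averaged 3.32 ± 0.541 RPKM (SD, n = 4) against 2.35 ± 0.187 (n = 3), with a difference of 0.36 ± 0.24 (limma, adjusted p = 0.569). Rrm2 averaged 2.63 ± 0.495 against 1.3 ± 0.295 RPKM, with a difference of 0.66 ± 0.31 (limma, adjusted p = 0.406).

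The WT comparison does not contain libraries 4 and 13, but they enter the shared estimate of the spread. With both left out, the difference of Mki67 stayed as it was and its SE fell from 0.187 to 0.0893, so that it was the one gene of the set called (limma, adjusted p = 0.0386), beside 0.416% of all genes. Since the pair holds the highest values of Mki67 and of most other genes of the set, leaving it out lowers the spread of these genes by construction, and this call is no independent support. It was lost again with library 18 left out too (0.39, limma, adjusted p = 0.0949). With library 18 left out as well the median over the genes in the fit was 0.15, against 0.28 with all libraries. Neutrophil markers were uneven in this group, with summed levels of 3.75 to 51.8 RPKM at 150 µg/d, the highest in library 17, and 2.44 to 5.67 RPKM without infusion; in library 18 the sum was 8.11 RPKM. The other pathway lists held no called gene with all libraries, and without the pair Pold2, a subunit of DNA polymerase delta, fell (-0.48, limma, adjusted p = 0.0469). Cdk1 (0.575, 0.596, 0.614 and 1.6 RPKM) and Top2a (0.777, 0.695, 0.552 and 1.08 RPKM) had their highest value at this dose in library 18. Mki67, Cdk1 and Top2a are outside the rule for named genes and were chosen after their values were seen.

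**Figure D5:**
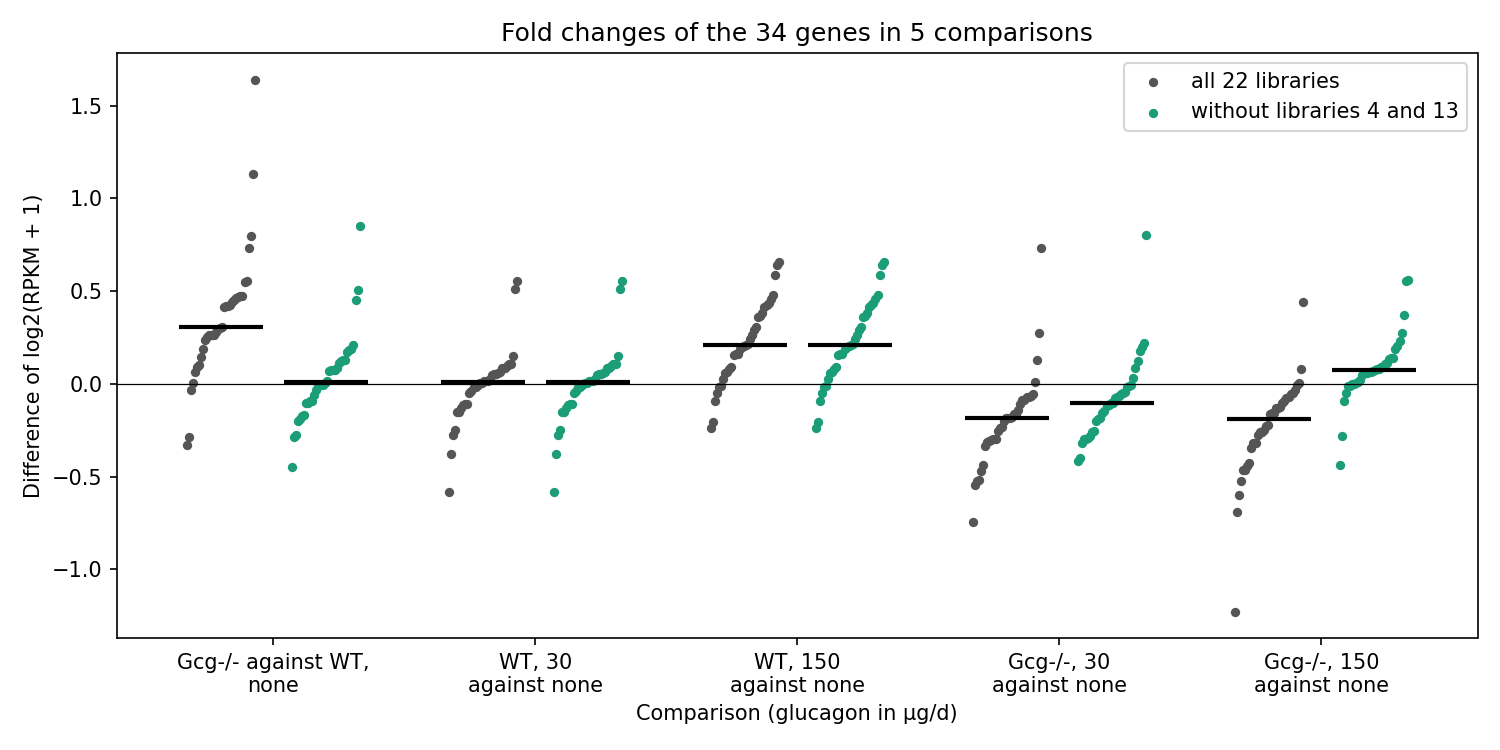
Difference of log2(RPKM + 1) for each of the 34 genes in 5 comparisons, ordered by size, with all 22 libraries (grey) and without libraries 4 and 13 (green), and a bar at each median. The medians of uninfused Gcg-/- against WT (0.31 and 0.01) and of 150 µg/d in Gcg-/- liver (-0.19 and 0.07) move when the pair is left out. That of 150 µg/d in WT liver is 0.21 in both because neither WT group holds library 4 or 13, so it could not move.

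In Gcg-/- liver each dose was set against the uninfused Gcg-/- group, which holds library 4. At 30 µg/d the median difference of the 34 genes was -0.18 and 30 were lower, and at 150 µg/d it was -0.19 and 31 were lower. No gene of the set was called by limma at either dose, with backgrounds of 0.0863% and 2.72% of 11590 genes. At an unadjusted p under 0.05 there were 2 of 24 (8.33%, against 10.1% of all genes) and 1 of 24 (4.17%, against 18.4%). No gene of the set had separate ranges at either dose, where 2.41% and 3.36% of all genes lay wholly above and 4.52% and 6.73% wholly below. Ccnd1 averaged 12.6 ± 10.3 RPKM at 30 µg/d and 7.48 ± 2.83 at 150 µg/d (SD, n = 4 each), which gave log2 differences of -0.75 ± 0.50 (limma, adjusted p = 0.63) and -1.23 ± 0.50 (adjusted p = 0.195); without libraries 4 and 13 the latter was -0.44. Tk1, which was not high in library 4, was 17.5 ± 6.61 RPKM at 30 µg/d against 9.75 ± 1.83 without infusion (0.73 ± 0.27, limma, adjusted p = 0.367), with library 12 highest.

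Without libraries 4 and 13 the medians of the 2 doses had opposite signs. Both were small and set against libraries 5 and 6 alone, so this is a description only. At 30 µg/d the median was -0.10 with 27 of 34 genes lower, and at 150 µg/d it was 0.07 with 26 of 34 higher; no gene of the set was called at either dose (limma, backgrounds 0.026% and 0.779%). At 150 µg/d, Rrm1, Tk1, Birc5, Aurkb and Cdc6 lay above the remaining uninfused pair in all 4 libraries and none lay below, where 6.1% of all genes lay above and 10.6% below. Rrm1 stood at 2.69, 2.87, 2.89 and 2.94 RPKM, which is close to its level in library 15 and below the other 3 WT libraries at that dose. Its difference was 0.37 ± 0.10 (limma, adjusted p = 0.0922) without the pair and -0.03 ± 0.24 (adjusted p = 0.961) with it. At 30 µg/d, 10 genes lay below the uninfused pair (Ccna2, Ccnb1, Cdk1, Mcm7, Pcna, Mki67, Top2a, Bub1, Gins2 and Foxm1; background 11% downwards) and 4 above it (Ccne2, Tk1, Birc5 and Cdc6; 7.72% upwards). Of the other pathway genes, none was called at 30 µg/d. At 150 µg/d with all libraries, where 2.72% of all tested genes were called, Cdkn2d, an inhibitor of Cdk4 and Cdk6, rose (0.50, limma, adjusted p = 0.0352). Gadd45a (-1.47, limma, adjusted p = 0.0226) and Gadd45b (-2.48, 0.00985) fell. Without the pair these differences were 0.41, -1.12 and -1.85, and none was called (limma, adjusted p = 0.163, 0.108 and 0.0575). The endothelial markers Cdh5 (-0.47, limma, adjusted p = 0.0241) and Pecam1 (-0.35, 0.0297) also fell at 150 µg/d with all libraries, but were not called without the pair (-0.44 and -0.33, adjusted p = 0.0865 and 0.0957). The summed endothelial list was 65.3 to 83.5 RPKM at that dose and 88.5 to 91.8 without infusion. Its part in the values of the set was not tested.

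Whether the response to a dose differed between the genotypes was tested by the interaction in the same fit. No gene of the set was called at 30 µg/d (background 0.00863%, 1 gene of 11590) or at 150 µg/d (background 0%), and 2 of 24 (8.33%, against 9.02% of all genes) and 4 of 24 (16.7%, against 10.2%) had an unadjusted p under 0.05. At 150 µg/d those 4 were Ccnd1 (-1.71 ± 0.71), Ccne1 (-0.86 ± 0.32), Ccnb2 (-0.85 ± 0.32) and Mki67 (-0.59 ± 0.27), with limma adjusted p from 0.368 to 0.458, each with a higher mean at this dose in WT and a lower mean in Gcg-/- liver, the latter against the group that holds library 4. The median of the 34 genes was -0.40 with all libraries and -0.08 without libraries 4 and 13. At 30 µg/d the 2 genes were Tk1 (0.88 ± 0.38, limma, adjusted p = 0.503) and Ccne1 (-0.74 ± 0.32, adjusted p = 0.506).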

How the data were processed

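RNA was sequenced from 22 liver libraries. Per the labels' protocols, RNA was taken from frozen tissue with Trizol, treated with DNase, and polyA RNA was made into strand-specific libraries. The authors deposited RPKM per gene, 1 column per library; CASAVA 1.8.2, FastQC and the build GRCm38 are named in the submitters' processing notes, and the sources used here do not give the aligner, counter or annotation. Low values were whole multiples of 1 read within 0.1 in 64.1 to 69.1% of cases (20% by chance, 4378 genes with 1 transcript), too few for a count test. No 2 columns were identical, and within-group Spearman correlations across genes were 0.963 to 0.974.

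Genes with a mean of at least 0.5 RPKM (11590; 24 of the 34 members) entered limma 3.58.1 in R 4.3.3 on log2(RPKM + 1), with the 6 groups in 1 fit, a mean-variance trend, 16 residual and 3.18 prior degrees of freedom, and Benjamini-Hochberg adjustment over all tested genes; calls were made at an adjusted p under 0.05. Fold changes on this scale understate the change of low genes. Counts and medians over all 34 members come from the same fit without the filter (18876 genes). With libraries 4 and 13 left out, 11547 genes passed the filter, and Cdc20 and Gins2 no longer did. The fit with all libraries was tested on simulated data, drawn independently for each gene and library. Over the 7 comparisons it recovered 37.3 to 68.7% of 1.5-fold and 90.9 to 98.5% of 4-fold changes. No simulated library stood apart over many genes as libraries 4 and 13 do, so the simulation does not cover that case. Members and lists were chosen with earlier results of these data known. One gene of the female-biased list is not reported here, and the list's values are without it. A member was described library by library where its mean was at least 1 RPKM, or it was called in the fit with all libraries, or 1 library reached 1 RPKM and 4 times the median of the other 21 (23 members); of other pathway genes, called ones were named. Gene positions and promoters are RefSeq, GRCm38.p6; 7 members had no promoter entry. Alternatives were another pseudocount (0.1), filters (none, or 2 RPKM), median-of-ratios and quantile scaling, array weights, a fit of the compared groups alone, and leaving out each library in turn or libraries 4 and 13; the last without the filter, and without library 18 too, were chosen after seeing the data.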

Additional observations from a re-analysis of the deposited data

Results flagged for a closer look

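In the 4 groups of 4 libraries, 1 library lay apart from its group by Dixon's criterion in 11 of 92 tests over the 23 members described library by library. The same criterion set a library apart in 6.03% of 46360 tests over all tested genes, and chance gives about 1 in 20. Of the 23, 7 were described only because 1 library was high, and they hold 5 of the 11, so the members' share cannot be read against either rate. Of these, 7 were library 13 in Gcg-/- liver at 30 µg/d: Ccnb1 at 0.841 RPKM against 0.0329 to 0.0767 in the rest of the group, Mcm3 at 5.6 against 1.26 to 1.69, Mcm4 at 3.84 against 0.965 to 1.38, Mcm6 at 12.2 against 1.38 to 2.16, Pcna at 28.9 against 14.8 to 15.6, Rrm1 at 5.12 against 2.11 to 2.35, and Cdc20 at 1.98 against 0 to 0.257. Library 4 belongs to a group of 3, and the criterion was applied to the groups of 4 only, so library 4 was not tested. Cdc20 was also apart in library 18 (WT, 150 µg/d), at 1.38 RPKM against 0.315 to 0.359. Tyms was apart in library 16, at 4.16 RPKM against 10 to 10.8 in the other WT libraries at 150 µg/d, and Cdkn1a in library 19, at 1.41 against 0.319 to 0.491 in the other Gcg-/- libraries at that dose. Ccnb1 in library 8 of WT liver at 30 µg/d was at 0.356 RPKM against 0.176 to 0.186.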

How the results depend on the processing

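None of the 16 differences of single members followed here was called with all libraries, so no call could be lost; 263 of 272 alternative values kept their direction and stayed uncalled. Sizes moved more: without library 4, Ccnd1, Mcm6 and Mki67 in uninfused Gcg-/- against WT liver went from 1.64, 1.13 and 0.472 to 0.851, 0.453 and 0.182, and Ccnd1 at 150 µg/d in Gcg-/- liver from -1.23 to -0.438. The exceptions in direction or call were Rrm1, Ccne1 and Mki67. Rrm1 at 150 µg/d in Gcg-/- liver, -0.03 with all libraries, turned to 0.00439 under median-of-ratios scaling, 0.0143 under quantile scaling, 0.154 with array weights and 0.373 without libraries 4 and 13, filtered or not; leaving out 1 library gave -0.304 to 0.373, the latter without library 4. Ccne1 in uninfused Gcg-/- against WT liver was called without library 5. Mki67 at 150 µg/d in WT liver was called without libraries 4 and 13, with the filter or without it. The number of members called was accordingly 0 to 1 in the first comparison with a library left out, and 1 in the second without the pair in either fit. In WT liver at 30 µg/d and in Gcg-/- liver at both doses it was 0 under every alternative run, as in both interactions. The number of members highest in library 13 was 8 after median-of-ratios scaling and 5 before.

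The number of all genes called moved far more. For uninfused Gcg-/- against WT it was 179, but 945 with array weights, 22 without libraries 4 and 13 (32 also without the filter) and 9 to 294 with 1 library left out. For WT at 30 µg/d it was 0, but 4 with array weights and 1 with the compared groups alone. For WT at 150 µg/d it was 34, but 8 with a pseudocount of 0.1, 17 without the filter, 438 with array weights, 18 without the filter and the pair, and 0 to 47 with 1 library left out. For Gcg-/- at 30 µg/d it was 10, but 21 with array weights, 1 with the groups alone, 3 without the pair, filtered or not, and 1 to 33 with 1 library left out. For Gcg-/- at 150 µg/d it was 315, but 770 with array weights, 1 with the groups alone, 90 without the pair (70 also without the filter) and 61 to 586 with 1 library left out. The interaction at 30 µg/d called 1 gene, but 2 without the filter, 11 with array weights, 0 with the groups alone or without the pair in either fit, and 0 to 3 with 1 library left out; that at 150 µg/d called 0, but 66 with array weights and 0 to 5 with 1 library left out. The cause was not tested. No scaling moved the median of all genes by over 0.1.

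No paired analysis was possible because the running numbers are unique and pair no libraries. The genes below about 0.5 RPKM rest on few reads, and the number of libraries, 3 or 4 per group, limits the precision of every difference.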
